A study of Mus musculus with 12 samples.

Results

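The stretches described here hold the tRNA genes of 2 mouse chromosomes in liver: a group on chromosome 1 between Fcgr4 and 1700009P17Rik, around Fcgr3, and every tRNA stretch on chromosome 3, most of them between Fcgr1 and Hfe2. They were chosen by position and length. A stretch is an unbroken run of bases with a value in the deposited coverage files. The members are the chromosome 1 stretches that start between positions 172000000 and 174000000 (build mm9) and all chromosome 3 stretches, without those 445 to 500 bp long. This gave 67 of the 532 stretches common to all files, 25 on chromosome 1 and 42 on chromosome 3. All 67 held a predicted tRNA gene, 26 genes on chromosome 1 and 44 on chromosome 3, so that the label fits the sequences. It fits the positions less well: 50 of the 67 lay in 2 compact clusters, and 17 lay elsewhere in the selected regions.

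tRNA genes are transcribed by RNA polymerase III (Pol III). Their promoter lies inside the gene: the A box and the B box are bound by TFIIIC, which places TFIIIB upstream of the start, and TFIIIB recruits the polymerase, which stops at a run of T residues past the gene. The same tRNA is often encoded by many gene copies, and mammalian tissues use only some of them. The study asked which Pol III genes are occupied in the liver, using chromatin immunoprecipitation with sequencing (ChIP-seq), in which DNA bound to a protein is pulled down with an antibody and read.

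The livers came from male C57/BL6 mice aged 12 to 14 weeks, with no transgene or drug named in the labels. All were kept for 2 weeks with 12 h light and 12 h dark and were entrained for 7 days by feeding in the dark phase. There were 5 mice at Zeitgeber time 2 (hours after lights on) and 5 at time 26, which served as the biological replicate. The labels say neither which replicate number is which time nor whether mice were pooled, so p-values measure only the spread between libraries. The 12 libraries form 6 groups of 2: RPC1 and RPC4, both Pol III subunits; RPB2, which belongs to RNA polymerase II (Pol II), the enzyme of mRNA genes; libraries titled H3K4; libraries titled H3K36; and input, chromatin without pull-down. The labels of the 4 histone libraries contradict themselves: those titled H3K4 name an H3K36me3 antibody and those titled H3K36 an H3K4me3 antibody. They are called by their titles here, and which mark each holds cannot be told apart. Values are the mean coverage of a stretch in reads per base as deposited, with no scaling for depth, unless a log2 value is named. The Pol III libraries were far deeper over these stretches, with 82276 to 160705 read equivalents of 76 bp, than RPB2 (13849 and 14779), H3K4-titled (17033 and 26665), input (3365 and 3563) or H3K36-titled libraries (1273 and 1754). The 25 chromosome 1 members took 5062 to 9782 read equivalents in Pol III libraries and 294 and 359 in input. The 42 chromosome 3 members took 5475 to 10053 and 239 and 259.

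The genes are shown first, because the main pattern is that equal gene sequences carried very different amounts of Pol III. Each is read from the mm9 reference in the direction of transcription, with the anticodon and the 11-base B box in capitals. A tRNA-Gly (GCC) gene occurs in the same letters at chr1:172975116-172975186 (plus strand, intergenic) and at chr3:84032933-84033003 (minus strand, in an intron of Trim2). The same holds for tRNA-Val (CAC) at chr1:173041574-173041646 and chr3:96136663-96136735 (both plus strand, intergenic). A tRNA-Asn (GTT) gene is shared by chr1:172964073-172964146 (minus strand) and 4 chromosome 3 stretches, among them chr3:96301704-96301777 (plus strand). The tRNA-Gly (TCC) gene is shared by 5 chromosome 1 genes and chr3:96304932-96305003 (minus strand).
Gly(GCC), chromosomes 1 and 3: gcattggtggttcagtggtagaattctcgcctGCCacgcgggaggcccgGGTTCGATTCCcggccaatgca
Val(CAC), chromosomes 1 and 3: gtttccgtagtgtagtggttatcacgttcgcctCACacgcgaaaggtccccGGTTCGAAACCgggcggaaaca
Asn(GTT), chromosomes 1 and 3: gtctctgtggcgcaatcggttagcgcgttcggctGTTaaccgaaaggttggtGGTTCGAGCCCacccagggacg
Gly(TCC), chromosomes 1 and 3: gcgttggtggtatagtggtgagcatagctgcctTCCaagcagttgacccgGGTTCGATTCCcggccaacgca

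A second set shows genes whose letters differ and whose Pol III coverage was at the ends of the range. The tRNA-Leu (CAG) genes at chr1:173031969-173032051 and chr3:24061947-24062029 (both minus strand) differ by G17A, G27A and G63A, counted from the first base of the chromosome 1 gene. G17A lies in the A box and G63A in the B box. The tRNA-Val (CAC) gene at chr3:59278848-59278919 (minus strand) has an altered B box. The initiator-type tRNA-Met (CAT) gene at chr3:90279782-90279853 (minus strand), whose tRNA starts protein synthesis, is the strongest member among stretches with a single gene that lack the usual B box letters. The gene at chr1:173599570-173599642 (plus strand) reads as tRNA-His (ATG) by its anticodon, but differs from the tRNA-Arg (ACG) gene of chromosome 3 at 7 of 73 positions.
Leu(CAG), chromosome 1: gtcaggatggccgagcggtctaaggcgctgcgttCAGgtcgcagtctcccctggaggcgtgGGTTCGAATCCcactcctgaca
Leu(CAG), chromosome 3: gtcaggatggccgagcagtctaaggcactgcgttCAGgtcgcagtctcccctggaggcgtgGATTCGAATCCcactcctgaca
Val(CAC), chromosome 3, weak copy: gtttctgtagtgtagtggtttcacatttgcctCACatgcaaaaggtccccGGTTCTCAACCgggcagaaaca
Met(CAT), chromosome 3: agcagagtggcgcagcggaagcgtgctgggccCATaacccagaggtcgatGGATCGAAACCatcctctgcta
His(ATG), chromosome 1: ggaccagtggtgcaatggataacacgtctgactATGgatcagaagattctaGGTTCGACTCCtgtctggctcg
Arg(ACG), chromosome 3: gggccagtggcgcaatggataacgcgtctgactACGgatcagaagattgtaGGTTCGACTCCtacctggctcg

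The usual B box letters (GGTTCGA, then any 2 bases, then CC, sought at the B box position of each predicted gene on its own strand) were present in 26 of 26 chromosome 1 genes and 28 of 44 chromosome 3 genes. They were present in 55.1% of all 421 predicted tRNA genes of the series. A TTTT run began within 30 bases past the gene in 84.6% of chromosome 1 genes, 90.9% of chromosome 3 genes and 85.04% of all genes, so it did not set the members apart. The chromosome 1 genes covered 7 amino acids and the chromosome 3 genes 13.

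All 9 single-copy stretches of the chromosome 1 cluster carried high Pol III coverage. The compact cluster held 24 stretches over 77.9 kb (172963923 to 173041796). Single-copy means that under 50% of the 76-bp windows of a stretch, the read length, occur elsewhere in the genome. The 9 single-copy stretches of the cluster had Pol III coverage (mean of 4 libraries) of 46.0 to 182.9, with a median of 121.6. Input on them was 0.475 to 2.57. The highest was the tRNA-Asn (GTT) stretch at the Fcgr4 end, with 167.0 and 98.4 in RPC1, 223.3 and 242.7 in RPC4, and 3.14 and 2.00 in input. The tRNA-Leu (CAG) stretch at 173031819 had 119.2 and 89.6 in RPC1, 193.9 and 200.04 in RPC4, and 2.69 and 0.248 in input. All 4 Pol III libraries lay far above both input libraries at each.

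The other 3 of the 5 highest were single-copy stretches too. The tRNA-Gly (GCC) stretch had 112.9 and 78.4 in RPC1, 181.7 and 192.5 in RPC4, against 1.02 and 1.07 in input. The stretch with tRNA-Gly (TCC) and tRNA-Glu (CTC) genes at 173032737 had 117.6 and 79.7 in RPC1, 149.4 and 169.3 in RPC4, and 2.07 and 1.83 in input. Both genes share this stretch, so their parts in it were not separated. The tRNA-Leu (CAG) stretch at 172968595 had 121.8 and 80.8 in RPC1, 137.7 and 146.2 in RPC4, and 1.07 and 0.909 in input. RPC4 was above RPC1 in coverage as deposited at all 5, and the SDs over the 4 Pol III libraries include this difference in level. The tRNA-Val (CAC) stretch at the 1700009P17Rik end had 84.97 ± 23.7 (SD, n = 4). The 2 single-copy tRNA-Asp (GTC) stretches were the lowest of the cluster's single-copy genes, at 46.0 ± 13.6 and 47.4 ± 5.50 (SD, n = 4).

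The other 15 stretches of the chromosome 1 cluster are 3 copies of a module of 5 genes, in the order Glu (CTC), Gly (TCC), Asp (GTC), Leu (CAG) and Gly (GCC), each copy 2.84 to 2.88 kb long. The first copy overlaps the start of Fcgr3, a receptor for the constant part of antibodies. The middle copy and the last were alike to the last base over the Gly (TCC), Asp (GTC) and Leu (CAG) stretches, and the deposited values there were equal or nearly so, as at tRNA-Gly (TCC) with 39.1 in both. Across the copies 61.1% to 100% of read-length windows recurred in the genome. Pol III coverage on them ran from 10.8 to 58.8 with a median of 34.2. Input was higher than on single-copy genes, at 2.37 to 5.55, and the 2 ranges of input overlapped only at their ends. Bases beside these genes were also rich in G and C, with a median of 65.1% against 46.6% beside the 9 single-copy genes of the cluster, and the part of base composition in the input values was not tested.

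Summed over its 3 copies, a module gene could be set beside the single-copy gene of the same anticodon. The 3 Gly (TCC) copies summed to 136.9 ± 41.1 (SD over 4 libraries) in Pol III, against 100.3 on the single-copy Gly (TCC) stretch. Their input summed to 9.15, against 0.864, so the higher Pol III sum was not higher relative to input. The 3 Asp (GTC) copies summed to 78.6 ± 20.4 (SD, n = 4), against 46.0 and 47.4. Input summed to 9.93 on these copies, against 0.930 and 1.07. On the Leu (CAG) copies it summed to 7.88, against 0.990 and 1.47. The 3 Leu (CAG) copies summed to only 35.1 ± 9.01 (SD, n = 4), below each of the 2 single-copy Leu (CAG) stretches (121.6 and 150.7), although the gene sequence of the higher is identical. The 2 lowest copies were equal to the last base. The middle copy had 7.60 and 9.42 in RPC1, 13.8 and 12.5 in RPC4, and 2.49 and 2.25 in input. The last copy had 7.68 and 9.37 in RPC1, 14.1 and 12.3 in RPC4, and 2.63 and 2.19 in input. Which of the 3 copies the reads came from cannot be told apart where the sequence is the same.

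**Figure D1:**
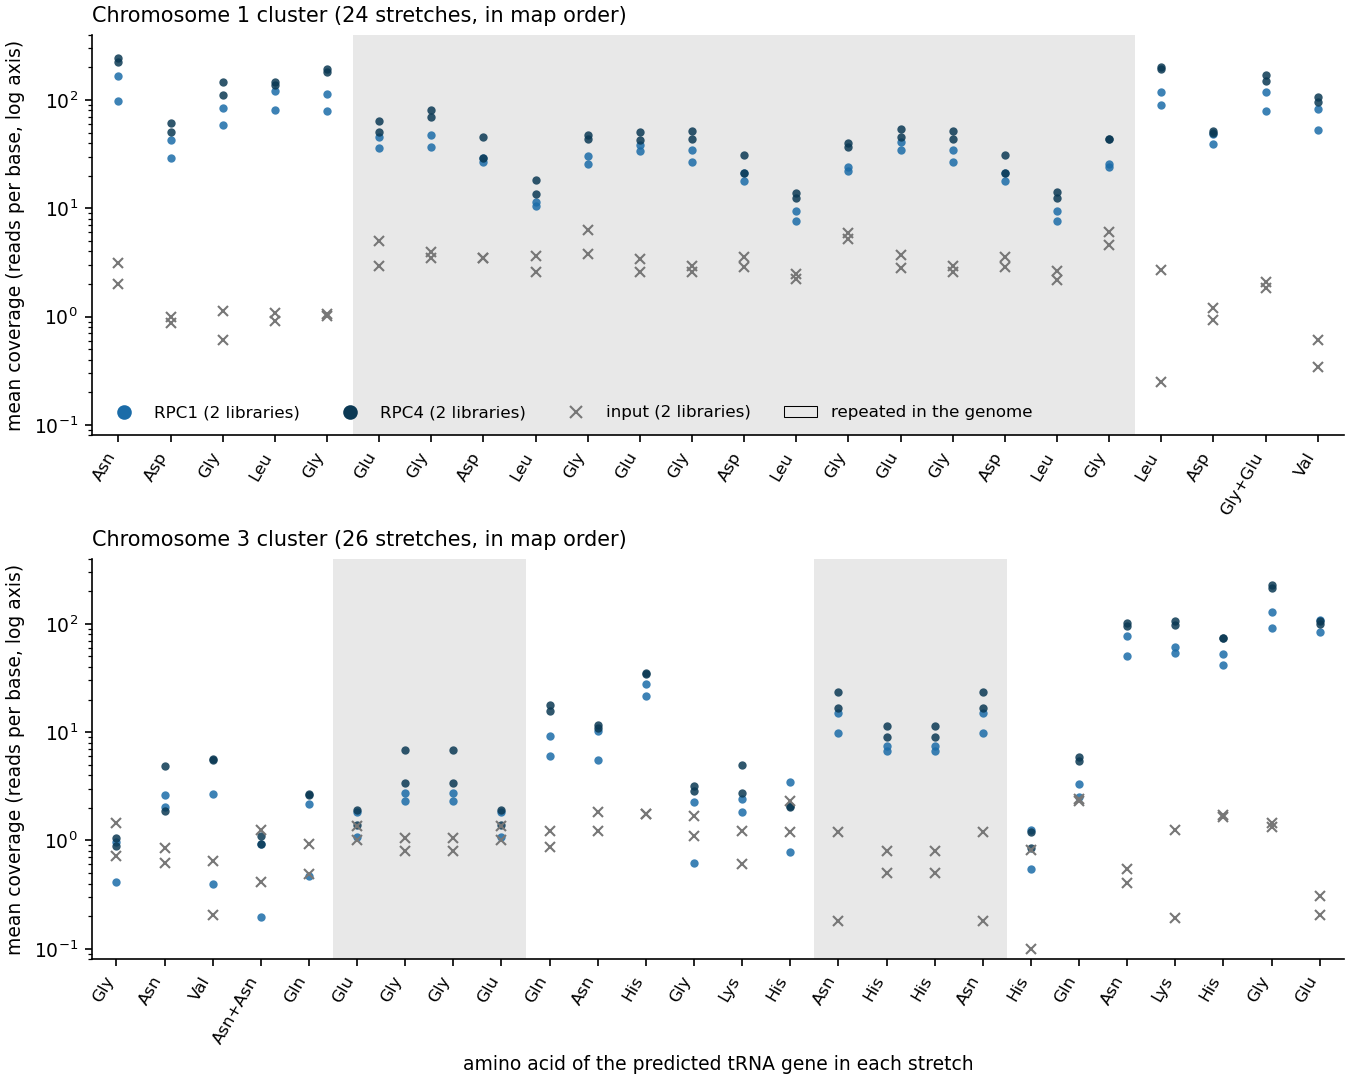
Mean coverage per stretch (reads per base, log axis) in map order for the chromosome 1 cluster (top, 24 stretches) and the chromosome 3 cluster (bottom, 26 stretches); circles are the 2 RPC1 and 2 RPC4 libraries, crosses the 2 input libraries, and grey marks stretches repeated in the genome. On chromosome 1 every Pol III circle lies above the input crosses of its stretch, while on chromosome 3 the 5 stretches at the right end, 60.7 to 164.8 in mean Pol III, stand above the other 21.

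A chromosome 1 member lay 557.6 kb from the cluster, near Cd48, and it was nearly empty. This tRNA-His (ATG) stretch had 0.651 and 1.66 in RPC1, 1.68 and 0.232 in RPC4, and 0.674 and 0.354 in input. The Pol III and input values overlapped. Of the nearest stretches outside the positional window, a tRNA-Pro (CGG) stretch at 167572252 had 82.6 ± 22.1 (SD, n = 4) and a tRNA-Arg (TCT) stretch at 175320310, in an intron of Aim2, had 1.45 ± 0.591 (SD, n = 4). The 3 stretches left out for their length held no predicted tRNA gene and had Pol III means of 5.35 (chromosome 1, in Sdhc), 4.25 and 2.95 (chromosome 3, by Selenbp2 and Selenbp1).

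Chromosome 3 showed a split. Its compact cluster held 26 stretches over 190.6 kb (96115027 to 96305591). The 5 at the Hfe2 end, which lie within 4.04 kb of each other and 18.02 kb from the next, had Pol III means of 60.7 to 164.8. The other 21 had 0.789 to 29.8 with a median of 3.55, so the 2 sets did not overlap. Their input ranges did overlap, at 0.255 to 1.68 and 0.426 to 2.36. This split was noticed in the values and is given without a test.

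The 5 occupied stretches at the Hfe2 end hold genes for 5 different amino acids. tRNA-Gly (TCC) was the strongest, with 129.6 and 90.8 in RPC1, 212.1 and 226.5 in RPC4, and 1.34 and 1.44 in input. tRNA-Glu (CTC) beside it had 107.9 and 84.1 in RPC1, 100.7 and 105.6 in RPC4, and 0.306 and 0.204 in input. tRNA-Asn (GTT) had a Pol III mean of 81.5 ± 23.2, tRNA-Lys (CTT) 79.3 ± 25.7 and tRNA-His (GTG) 60.7 ± 16.4 (SD, n = 4 each). The middle members of this order do not differ beyond their spread.

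Among the other 21 stretches of the cluster, 4 reached a Pol III mean of 10: a tRNA-His (GTG) stretch with 29.8 ± 6.34, a tRNA-Gln (CTG) stretch with 12.2 ± 5.57, and an inverted pair of tRNA-Asn (GTT) stretches with 16.1 ± 5.57 each (SD, n = 4). The inverted pair, like 3 other inverted pairs in the cluster, is identical to the last base, so its deposited values were equal. The lowest was the stretch with 2 tRNA-Asn (GTT) genes at 96138388, with 0.933 and 0.197 in RPC1, 1.09 and 0.936 in RPC4, and 0.415 and 1.25 in input. All 4 tRNA-Gly (CCC) stretches were low, at 0.831 to 3.81. Elsewhere in the series 3 stretches of that anticodon had 0.887 to 160.7.

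The 16 chromosome 3 stretches outside the cluster ranged from empty to the highest of all members. At 1700064H15Rik, 3 neighbouring stretches within its gene body or at its start carried Arg (ACG), Tyr (GTA), and Tyr (GTA) with Ala (AGC) genes. The stretch with Tyr (GTA) and Ala (AGC) was the highest member, with 187.1 and 127.5 in RPC1, 237.6 and 228.9 in RPC4, and 2.89 and 2.62 in input. The single Tyr (GTA) stretch had 161.4 and 103.6 in RPC1, 202.5 and 186.7 in RPC4, and 2.73 and 1.41 in input, and Arg (ACG) had a mean of 66.5 ± 23.0 (SD, n = 4). On all 3, each Pol III library lay far above input. The initiator-type tRNA-Met (CAT), 120 bp from the start of Ilf2, had 162.7 and 109.0 in RPC1, 180.7 and 180.1 in RPC4, and 0.726 and 0 in input. tRNA-Val (AAC), 595 bp from the start of Mynn, had 129.3 and 99.02 in RPC1, 150.3 and 185.5 in RPC4, and 3.75 and 1.15 in input. tRNA-Arg (TCT) near Dnttip2 had a mean of 129.2 ± 36.1 (SD, n = 4).

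Lower levels were found on the rest of these 16. tRNA-Glu (CTC), 471 bp from the start of Acp6, had 36.5 ± 7.40, and the tRNA-Pro genes near Elf2 had 24.2 ± 4.76 (TGG) and 16.1 ± 6.16 (AGG) (SD, n = 4). The remaining 7 stretches had Pol III means of 0.358 to 2.57. The lowest of all members was tRNA-Leu (CAG) at 24061797, with 0 and 0.595 in RPC1, 0.277 and 0.559 in RPC4, and 0.198 and 1.58 in input. The weak tRNA-Val (CAC) stretch at 59278698 had 0 and 0.204 in RPC1, 1.43 and 0.505 in RPC4, and 1.29 and 0.944 in input. At both, Pol III did not stand above input.

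Equal gene sequences thus differed in Pol III. Of 13 sets of members with the same gene letters, 10 held members whose mean Pol III differed by over 2 times, and 5 sets joined the 2 chromosomes. Each ratio is that of the highest to the lowest member of a set. The Glu (TTC) and Gly (CCC) sets are inverted pairs identical to the last base, so their equal values were fixed in advance. Some of the ratios set a single-copy stretch against a repeated copy with fractional coverage. With single-copy members alone, a choice made after seeing the data, 9 sets had 2 or more members and 7 of them differed by over 2 times. The Gly (GCC) gene shown above had 141.4 on chromosome 1 and 2.14 on chromosome 3 (1.499 and 1.71 in RPC1, 3.14 and 2.22 in RPC4), a ratio of 66.0, and 45.8 to 86.8 by library. Input was 1.04 and 0.615. The Asn (GTT) gene had 182.9 on chromosome 1 against 81.5 at the Hfe2 end and 9.61 in the middle of the chromosome 3 cluster, a ratio of 19.03 between the ends (16.3 to 22.2 by library). The Val (CAC) gene had 84.97 on chromosome 1 and 3.55 on chromosome 3, where the 4 libraries spread from 0.394 to 5.61.

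Within chromosome 3 the Lys (CTT) gene had 79.3 at the Hfe2 end and 2.98 at 96232008, a ratio of 26.6 (19.7 to 38.1 by library). For Gly (TCC) chromosome 3 was the higher: its stretch (164.8) exceeded the single-copy chromosome 1 stretch (100.3). The Glu (CTC) gene at the Hfe2 end (99.6) also exceeded each of its identical module copies on chromosome 1 (41.4 to 49.2), but not their sum, 134.3 ± 27.5 (SD, n = 4), which was the higher in 4 of 4 libraries. These copies are repeated in the genome and carry fractional coverage, and their input summed to 10.2, against 0.255 at the Hfe2 end. The other directions in these sets were the same in 4 of 4 Pol III libraries. The 150 bases on each side were unlike in these pairs: at equal distance from the gene, 22.7% (upstream) and 24% (downstream) of bases were the same for the Gly (GCC) pair, and 24.7% and 30% for the Lys (CTT) pair.

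**Figure D2:**
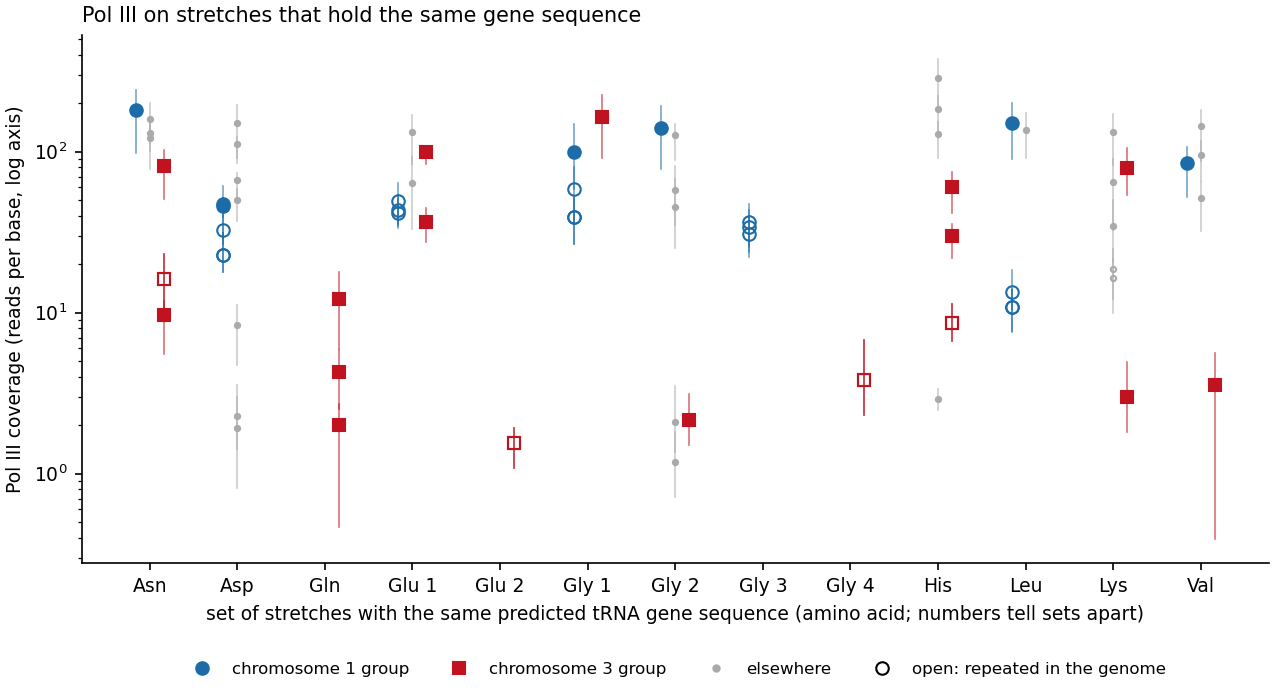
Pol III coverage (reads per base, log axis) of stretches that share a predicted gene sequence, by set; symbols are means of the 4 Pol III libraries, lines run from the lowest to the highest library, and open symbols mark stretches repeated in the genome. The set Gly 2 joins 141.4 on chromosome 1 with 2.14 on chromosome 3, and the set Lys joins 79.3 with 2.98.

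The B box letters were not the same on weak and strong genes, but they did not sort them. Among chromosome 3 stretches with a single gene, 13 of 26 with the usual letters and 4 of 14 without them had a Pol III mean of 10 or more. In the rest of the series these shares were 64.9% of 151 and 33.3% of 159. The weakest Val (CAC) and Leu (CAG) members both have other letters at the B box, while the initiator-type Met (CAT) gene has them too and stood at 158.1. A Glu (TTC) gene in 2 copies in the chromosome 3 cluster differs from the Glu (CTC) gene at the Hfe2 end only by T19C and C34T. T19C lies at the end of the A box, and position 34 is the first base of the anticodon. The Glu (TTC) gene had 1.56 against 99.6. CpG dinucleotides beside the gene (550 bases on each side) were more frequent around occupied single-copy genes of chromosome 3, with overlap. The median was 3.64 per 100 bases (1.73 to 8.91) for the 16 stretches at 10 or more. It was 1.73 (0.273 to 4.18) for the 18 below. In the other tRNA stretches the medians were 3.09 and 0.909. By coverage per stretch the chromosome 1 cluster went the other way: its 15 repeated stretches had a median of 7.73, at a Pol III median of 34.2. That level is per copy, with reads partly divided between copies. Summed over the 3 copies, Gly (TCC) and Asp (GTC) exceeded the single-copy stretches of their anticodon, while Leu (CAG) and Gly (GCC) did not. The bases counted beside module genes also reach into neighbouring stretches. The 9 single-copy stretches of the cluster had a CpG median of 3.73, at a Pol III median of 121.6.

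The formal comparison with input used limma on log2(scaled coverage + pseudocount), with each library scaled by its level on the 25% of stretches on other chromosomes with the least Pol III. With this scaling 24 of 25 chromosome 1 members and 27 of 41 tested chromosome 3 members were above input for Pol III (Benjamini-Hochberg adjusted p below 0.05), at a background of 74.3% of all 478 tested stretches. So the chromosome 1 share (96.0%) was above that background and the chromosome 3 share (65.9%) below it. The chromosome 1 share counts each of the 3 module copies, whose reads were partly divided between them. Of the 10 single-copy chromosome 1 members, 9 were above input. The weak Val (CAC) stretch at 59278698 was below the filter on low coverage and had no test. The chromosome 1 member not called was His (ATG), with a log2 fold of 0.74. In the chromosome 3 cluster 17 of 26 were called, and outside it 10 of 15. The median log2 fold was 3.87 for chromosome 1, 2.62 for chromosome 3 and 3.88 for all tested stretches.

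These counts rest on the scale. With file totals, which compare shares of a file rather than levels over weak stretches, the median over all stretches moved from 3.88 to -1.12, and 5 chromosome 1 and 6 chromosome 3 members were above input, at a background of 20.7%, while 15 and 22 were below, at a background of 49.2%. With coverage as deposited 24 and 27 were above (background 75.7%) and 0 and 0 below (0.209%), and with median of ratios 7 and 10 were above (30.8%) and 10 and 15 below (31.6%). The 11 members above input with file totals were above under all 4 scalings tried. On chromosome 1 they were Asn (GTT), the single-copy Gly (TCC), both single-copy Leu (CAG) and Val (CAC). On chromosome 3 they were Tyr (GTA) with Ala (AGC), Met (CAT), Arg (TCT), and Asn (GTT), Lys (CTT) and Glu (CTC) at the Hfe2 end. The largest fold was that of Met (CAT), 8.28 (SE 0.52, adjusted p = 1.99e-09, limma) with weak-stretch scaling and 5.25 (adjusted p = 0.00827) with file totals.

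No member was called different between RPC1 and RPC4 by limma with any of the 4 scalings (0 of 25 and 0 of 41 tested with weak-stretch scaling), at a background of 0%, and 0 members had an unadjusted p below 0.05. The spread was estimated over all 12 libraries, the sparse input and H3K36-titled ones included. With 2 libraries for each subunit, the test can thus miss real differences. The median log2 difference was -0.12 on chromosome 1 and -0.09 on chromosome 3, against -0.16 over all stretches.

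The gap between the chromosomes was measured inside each library, so that depth enters only through the pseudocount. The median log2 value of the chromosome 1 members minus that of chromosome 3 was 2.92 and 2.82 in RPC1 and 2.50 and 2.59 in RPC4, but also 1.14 and 1.06 in input. The Pol III mean of 2.71 ± 0.20 (SD, n = 4) exceeded the input mean of 1.10 ± 0.06 (SD, n = 2) by 1.60. The groups did not overlap, with p = 0.0667 in an exact two-sided permutation test over 15 splits, the smallest p that 4 against 2 libraries allow. Over the 44 single-copy members alone, the gap rose to 4.03 ± 0.11 in Pol III (SD, n = 4) and was -0.19 ± 0.14 in input (SD, n = 2), a difference of 4.21 with the same exact permutation p. This second set of members was chosen after the data had been seen.

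**Figure D3:**
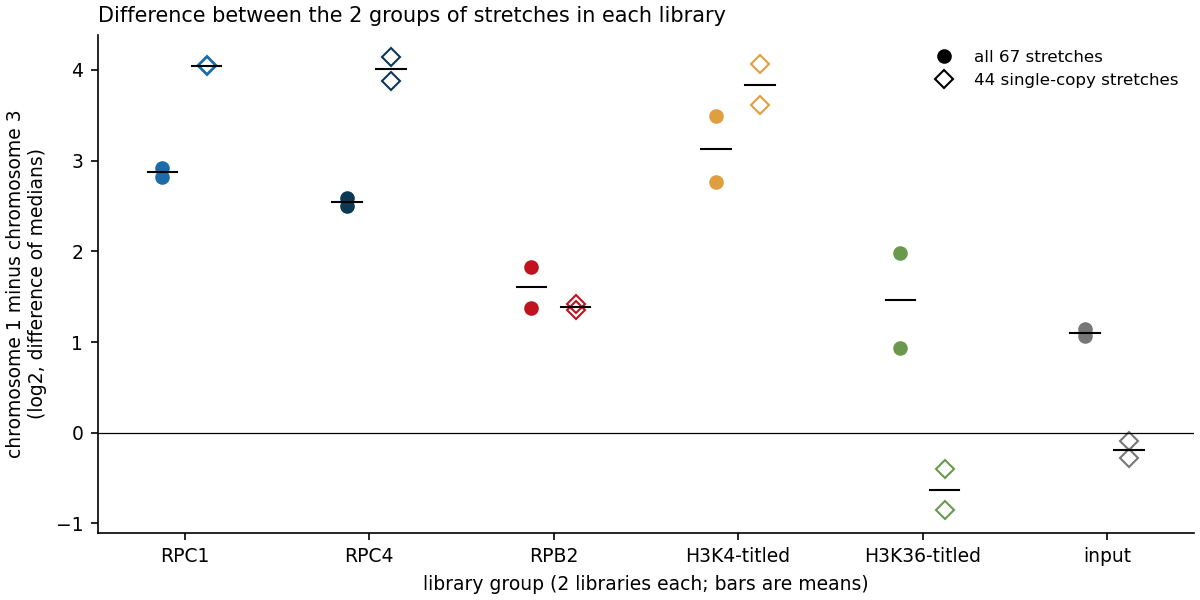
Difference between the median log2 value of the chromosome 1 and chromosome 3 stretches in each of the 12 libraries, by group; filled circles use all 67 stretches, open diamonds the 44 single-copy ones, and bars are group means. In input the difference falls from 1.10 to -0.19 when repeated stretches are left out, while in the Pol III libraries it rises from 2.71 to 4.03.

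Pol II was above input on a minority of the members. RPB2 coverage ran from 1.20 to 9.97 on chromosome 1 and 0.296 to 17.5 on chromosome 3. With weak-stretch scaling 11 of 25 chromosome 1 and 14 of 41 chromosome 3 members were above input, against a background of 42.9%, and 1 chromosome 3 member, the Gln (CTG) stretch at 96283164, was below, against 0.209%. Without RPB2 replicate 2, or without input replicate 2, the chromosome 1 count fell to 5. With file totals 1 and 2 were above, against 6.69%, and 10 and 5 were below, against 22.2%. As deposited 8 and 12 were above, against 39.5%, and 0 and 1 below, against 0.418%. With median of ratios 2 and 2 were above, against 8.79%, and 0 and 1 below, against 1.46%. The member with the most RPB2 was Tyr (GTA) at 1700064H15Rik, with 19.1 and 15.98 against 2.73 and 1.41 in input. Met (CAT) by Ilf2 had the largest log2 fold for RPB2 with weak-stretch scaling, 3.93 (SE 0.61, adjusted p = 0.000137, limma), from 4.81 and 8.23 against 0.726 and 0. It was not called with file totals (3.84) or median of ratios (4.16), and with input this low the pseudocount affects the size of the fold. Val (CAC) on chromosome 1 had 4.21 and 4.58 against 0.606 and 0.343, and Arg (TCT) had 7.61 and 7.09 against 1.15 and 0.197. On chromosome 1 the next largest folds belonged to Gly (GCC), with 8.59 and 6.14, and to the single-copy Leu (CAG) stretches at 172968595, with 4.29 and 7.30, and 173031819, with 6.16 and 4.37. Lys (CTT) at the Hfe2 end had 4.41 and 6.13 against 0.190 and 1.25 in input. At each of these members both RPB2 libraries lay above both input libraries. Val (CAC) was above input for RPB2 under all 4 scalings, as were Asn (GTT) and Glu (CTC) at the Hfe2 end.

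The gap between chromosomes was smaller in RPB2 than in Pol III, at 1.37 and 1.83 over all members and 1.36 and 1.42 over single-copy members. It exceeded input by 0.50 and 1.58, with exact permutation p = 0.333, the smallest that 2 against 2 libraries allow. Within the single-copy members of a chromosome, stretches with more Pol III had more RPB2 (Spearman's rho 0.78 over 10 stretches on chromosome 1 and 0.80 over 34 on chromosome 3). Input followed Pol III nearly as closely on those 10 (rho 0.73) but not on the 34 (0.09). Over all members, repeated ones included, rho for RPB2 was 0.23 over 25 stretches on chromosome 1 and 0.76 over 42 on chromosome 3. The stretches share libraries and neighbours, and this is a description.

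The H3K4-titled signal marked some members and not others of like Pol III. Of the 3 stretches at 1700064H15Rik, Arg (ACG) had 48.3 and 66.6, Tyr (GTA) 52.6 and 79.0, and Tyr (GTA) with Ala (AGC) 35.8 and 50.7. Arg (TCT) had 35.6 and 72.7 against 1.15 and 0.197 in input. On chromosome 1 an Asp (GTC) stretch had 29.4 and 36.2 against 1.21 and 0.938 in input, and the single-copy Gly (TCC) stretch 25.3 and 31.1 against 1.12 and 0.613. The Leu (CAG) stretch at 172968595 had 15.3 and 19.1. With weak-stretch scaling the largest log2 folds over input were 9.24 for Arg (TCT) and 8.02 for chromosome 1 Val (CAC). This scale raises H3K4-titled values relative to input, so both folds exceed those of the deposited coverage. Coverage on that Val (CAC) stretch was 17.2 and 21.8. On Met (CAT) by Ilf2 it was only 1.19 and 0.957, at a Pol III mean of 158.1, and on Val (AAC) by Mynn 3.68 and 3.27. Conversely, the Gln (CTG) stretch at 97485232 had 11.5 and 11.7 in H3K4-titled libraries with a Pol III mean of 2.57. Across the 10 single-copy chromosome 1 members the 2 signals had no common order (Spearman's rho 0.0061), while across the 34 on chromosome 3 it was 0.76. Over all members rho was 0.62 (25 stretches) and 0.77 (42).

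With weak-stretch scaling 25 of 25 chromosome 1 and 22 of 41 chromosome 3 members were above input for the H3K4-titled signal, against a background of 68%, and 4 chromosome 3 members were below, against 3.97%. Those 4 were Gln (CTG), Gly (CCC) and Lys (CTT) stretches of the cluster and the Glu (CTC) stretch at 123601955. Each of the 4 had an H3K4-titled coverage of 0 in both libraries, so the pseudocount set its scaled value. With so few reads on weak stretches in these libraries, the calls below input cannot tell depletion from sparse reads. These calls are relative: H3K4-titled libraries had 0.0563 and 0.116 reads per base on the weak stretches against 0.757 and 0.924 in input, so His (ATG) was called above at a coverage of 0.264 against 0.514 in input. With file totals 13 and 22 members were below, against 53.1%, and 4 and 6 were above, against 13.4%, all of them also above under every scaling tried. As deposited 12 and 14 were above, against 38.5%, and 3 and 13 below, against 26.2%. With median of ratios 9 and 9 were above, against 25.5%, and 4 and 13 below, against 29.1%. The chromosome gap was 3.49 and 2.77 in these libraries, and 3.61 and 4.07 over single-copy members.

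**Figure D4:**
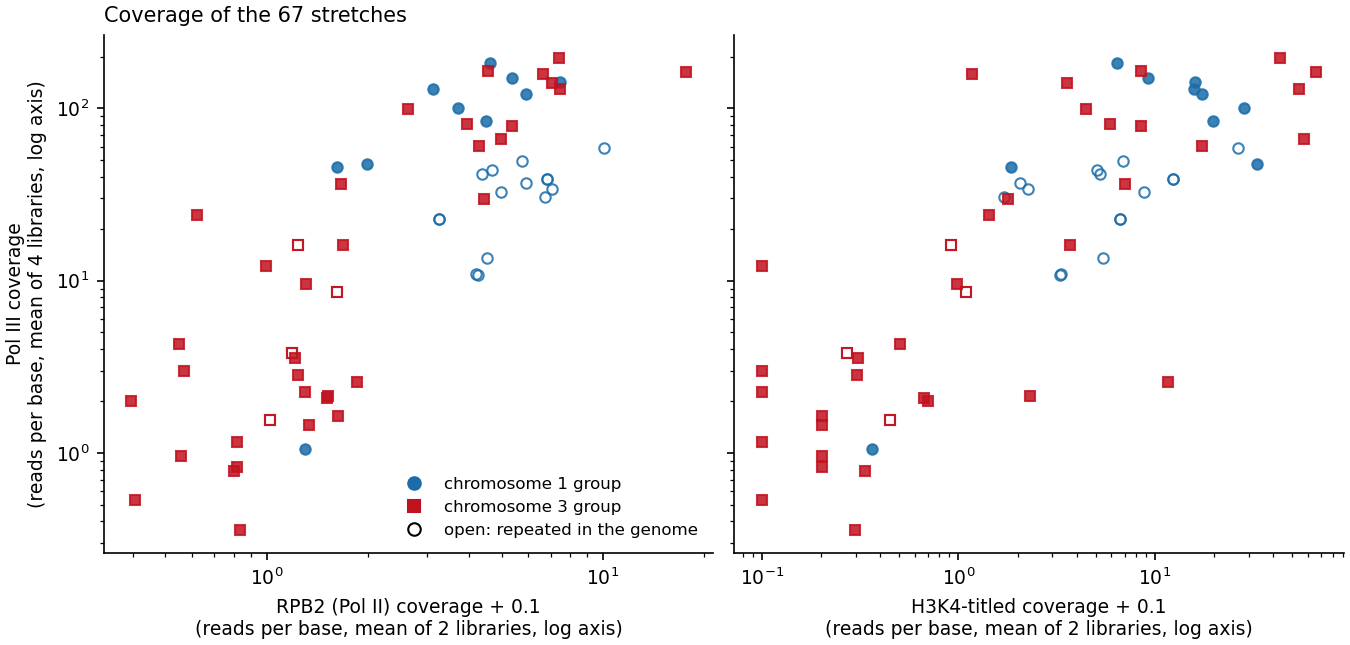
Pol III coverage of the 67 stretches (mean of 4 libraries) against RPB2 coverage (left) and H3K4-titled coverage (right), both means of 2 libraries with 0.1 added so that zeros can be drawn, on log axes; open symbols mark stretches repeated in the genome. The red square at upper left in the right panel is Met (CAT) with Pol III of 158.1 and H3K4-titled coverage of 1.08, and the lone one at lower right is Gln (CTG) with 2.57 and 11.6.

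The H3K36-titled signal was low on all members. It did not exceed 1.70 on chromosome 1 or 0.737 on chromosome 3. No member was above input by limma with weak-stretch scaling, against a background of 3.14%, although 1 member on each chromosome had an unadjusted p below 0.05. On chromosome 1, 3 members were below input and on chromosome 3, 5 were, against a background of 8.58%. Among them were Asn (GTT) on chromosome 1, with 0 and 0 against 3.14 and 2.00 in input, and His (GTG) at the Hfe2 end, with 0 and 0 against 1.71 and 1.65. With file totals 0 and 1 were above (3.56%) and 4 and 13 below (19.5%), as deposited 0 and 0 above (2.51%) and 23 and 28 below (67.4%), and with median of ratios 1 and 1 above (7.11%) and 3 and 8 below (9.62%). The chromosome gap was 1.98 and 0.94 over all members and -0.40 and -0.85 over single-copy members. At 1273 and 1754 read equivalents per library, small differences were not detectable.

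Coverage values that are not whole numbers mark places where reads were counted in parts, as happens when a read that fits several places is divided. On chromosome 1, 32.8% ± 3.63 (SD, n = 4) of Pol III coverage lay on bases with such a value, and 56.9% ± 1.07 (SD, n = 2) of input coverage. On chromosome 3 the shares were 8.38% ± 2.87 (SD, n = 4) and 7.41% ± 1.56 (SD, n = 2), near those of the other tRNA stretches (8.62% ± 1.76 and 8.10% ± 1.28). The chromosome 1 share was lower in Pol III and H3K4-titled libraries (28.9%) than in RPB2 (48.6%), H3K36-titled (53.1%) and input, with no overlap between these 2 sets of libraries. The share counts the full value of each such base, whole reads included, and misses divided reads that sum to whole numbers. It is thus neither a lower nor an upper limit on divided coverage. The single-copy Asn (GTT) stretch on chromosome 1 had 0% and 32.7% in RPC1, and 0% and 32.7% in RPC4.

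On chromosome 1 the coverage on bases with a fractional value lay mainly in the repeated copies. The 15 repeated stretches held 97.8% and 99.7% of it in input and 62.6% to 75.0% in Pol III libraries. By stretch, its share of Pol III coverage was 55.7% to 84.1% in the repeated ones and 0% to 36.8% in the 10 single-copy ones. On chromosome 3 the 8 repeated stretches held 93.8% and 99.8% of it in input but 16.9% to 53.8% in Pol III libraries, so that in 3 of 4 Pol III libraries most of it lay in single-copy stretches. The repeated copies made up 26.9% to 34.7% of all chromosome 1 coverage in Pol III and 77.8% and 82.3% in input.

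**Figure D5:**
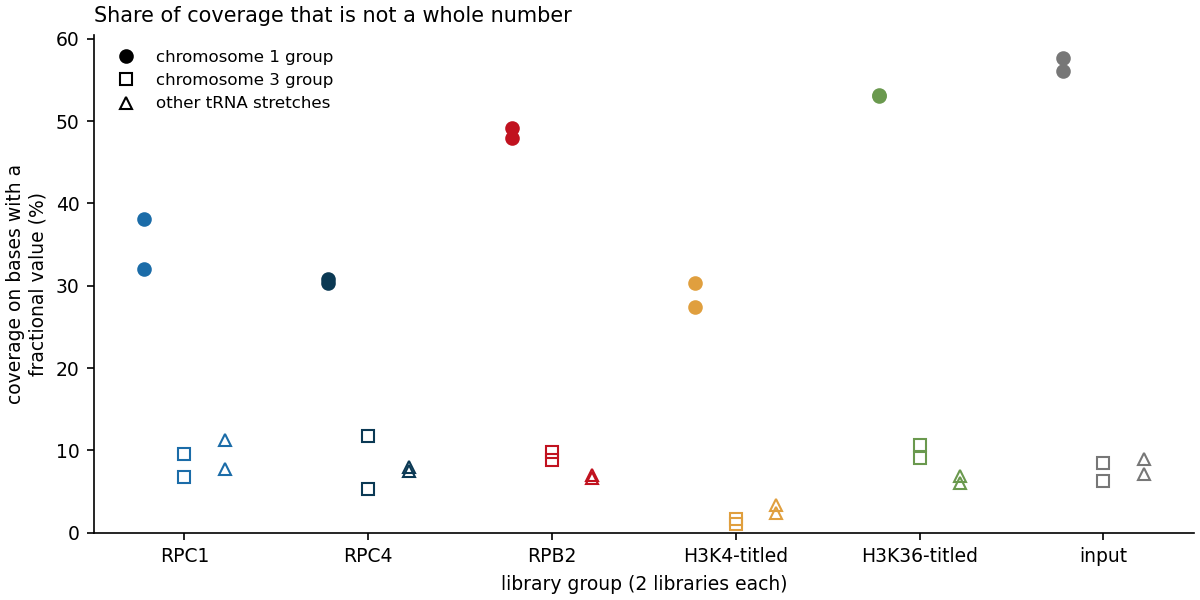
Share of coverage on bases with a fractional value (percent) in each of the 12 libraries, for the chromosome 1 group (filled circles), the chromosome 3 group (squares) and the other tRNA stretches (triangles). The chromosome 1 group lies between 27.5% and 57.7%, and the chromosome 3 group does not exceed 11.8%.

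Along the gene, the signals were spread unevenly. In the 8 single-copy chromosome 1 stretches with a single gene that reached a Pol III mean of 10, Pol III coverage was spread over the upstream flank (39.5% ± 5.74), the gene (32.2% ± 1.17) and the downstream flank (27.5% ± 5.78; SD, n = 4). By group mean, upstream exceeded downstream in every library group with a value in all 8 stretches, input included. By library, RPC4 replicate 2 went the other way, with 33.1% upstream and 34.4% downstream. RPC1 lay more upstream (44.3% ± 1.62) than RPC4 (34.8% ± 2.44; SD, n = 2 each). The H3K4-titled signal was low on the gene body, with 72.6% ± 3.75 upstream and 6.46% ± 1.89 on the gene, against 60.9% ± 5.83 and 14.2% ± 2.28 in input (SD, n = 2 each). In the 15 such chromosome 3 stretches Pol III coverage was 33.7% ± 7.62 upstream, 32.0% ± 1.42 on the gene and 31.9% ± 7.88 downstream (SD, n = 4). The 2 subunits went in opposite directions there. RPC1 had 39.9% ± 3.70 upstream and 26.1% ± 5.52 downstream, and RPC4 had 27.6% ± 3.26 and 37.7% ± 4.52 (SD, n = 2 each). H3K4-titled coverage, over the 14 of these 15 stretches with a value, was 61.1% ± 16.2 upstream and 10.1% ± 1.84 on the gene, against 43.9% ± 5.39 and 16.9% ± 6.93 in input (SD, n = 2 each), so that there the values on the gene differed by less than the SD of input. RPB2 coverage on the gene was 27.1% ± 1.02 on chromosome 1 and 28.6% ± 3.28 on chromosome 3 (SD, n = 2 each).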

How the data were processed

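Mean coverage of 532 stretches in 12 ChIP-seq libraries of mouse liver was analysed. The authors deposited per-base coverage as a signal in reads per base, on mm9 per the submitters' processing notes; for the aligner, the read filters and reads that fit several places, the method is not given in the sources used here. A member stretch with a single tRNA gene spans it and 150 bp on each side; 3 members hold 2 genes. tRNA genes were predicted from the mm9 reference by their 4 stems, anticodon and B box, and neighbours were taken from an mm9 annotation. Read-length windows (76 bp) were counted over the whole genome for repeats.

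limma 3.58.1 (R 4.3.3) was fitted to all 12 libraries on log2(scaled coverage + 0.362), after leaving out the lowest 10% of stretches, with Benjamini-Hochberg adjustment over 478 stretches at 0.05. Each library was divided by its trimmed mean (10%) over the 25% of stretches on other chromosomes with the least Pol III. This scale assumes that those stretches hold only background. The fit was tested on simulated data. The pseudocount shrinks the folds of weak stretches. The scaling stretches were picked by low Pol III coverage in these same libraries, which can lower the Pol III scale and favour calls above input. With this scale 0 of 478 stretches were below input for Pol III. Alternatives were file totals, coverage as deposited, median of ratios, gene body, single-copy bases, merged regions, a replicate block and leaving out each library. Other values used Python 3.11.15, numpy 2.4.6, scipy 1.17.1 and numba 0.67.0.

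The members and lists were chosen with earlier results of these data known. Values by library were printed for the 5 highest and 3 lowest members in Pol III of each chromosome and for the largest folds of RPB2 and H3K4-titled signal, and other members by mean. Some named members (those at the Hfe2 end, the module sums and the pairs of equal genes) were chosen after their values were seen. The sequences of several of the strongest chromosome 3 members are not reported here.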

Additional observations from a re-analysis of the deposited data

Results flagged for a closer look

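In 2 of the 67 members, 1 Pol III library lay far from the other 3, as judged by the gap to its nearest neighbour over the range of the 4 libraries; chance marks about 1 in 20 such groups. At the Asp (GTC) stretch at 172995339, in the first module copy on chromosome 1, RPC4 replicate 1 had 46.0 while the others had 26.6 to 29.3, a ratio of 0.860. At the Gln (CTG) stretch at 97485232 on chromosome 3, RPC1 replicate 1 had 1.93 while the others had 2.74 to 2.83, a ratio of 0.898.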

How the results depend on the processing

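Counts of members above input depended on the scale (chromosome 1, then 3). File totals gave 5 and 6 for Pol III, 1 and 2 for RPB2, 4 and 6 for H3K4-titled and 1 for H3K36-titled on chromosome 3. Median of ratios gave 7 and 10, 2 and 2, 9 and 9, and 1 and 1. Coverage as deposited gave 12 and 14 for H3K4-titled. Gene bodies gave 5 and 7 for RPB2. Single-copy bases gave 10 for Pol III, 5 for RPB2 and 9 for H3K4-titled on chromosome 1, with fewer stretches tested. Merging neighbours gave 8 for Pol III on chromosome 1, 5 and 7 for RPB2, and 9 and 14 for H3K4-titled, with fewer regions. Members under 50% repeated gave 9, 6 and 10 on chromosome 1. Beyond fewer stretches or regions, the cause was not tested.

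The chromosome 1 minus chromosome 3 difference over input (log2) for Pol III was 1.34 with file totals, 1.36 with median of ratios, 1.17 in gene bodies, 3.99 on single-copy bases, 4.08 after merging, 1.19 with means, 2.98 with identical genes counted once, 4.21 under 50% repeated and 1.98 in the compact clusters. For H3K4-titled it was 1.12 in gene bodies, 3.93 on single-copy bases, 4.37 after merging, 3.16 with identical genes once, 4.02 under 50% repeated and 2.89 in the compact clusters. For RPB2 it was 1.40, 1.35, 0.87 and 1.58 on single-copy bases, after merging, with identical genes once and under 50% repeated. For H3K36-titled it turned from 0.35 to -0.00845, -0.31 and -0.44 on single-copy bases, after merging and under 50% repeated. The last 2 choices of members were made after seeing the data.

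As a share of covered bases, fractional values made up 47.5%, 46.3%, 47.8%, 62.5% and 51.3% on chromosome 1 in Pol III, RPB2, H3K4-titled, H3K36-titled and input, and 15.9%, 17.02%, 16.5%, 23.6% and 11.5% on chromosome 3, so that the low chromosome 1 share of Pol III held only by coverage.

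Leaving out each library gave 24 to 24 and 23 to 27 members for Pol III, 5 to 12 and 11 to 16 for RPB2, 23 to 25 and 22 to 26 for H3K4-titled, 0 to 0 and 0 to 1 for H3K36-titled. The differences ran over 1.53 to 1.67 for Pol III, 0.27 to 0.73 for RPB2, 1.66 to 2.39 for H3K4-titled and -0.17 to 0.87 for H3K36-titled, which turned without H3K36-titled replicate 1. 

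Among named log2 folds of Pol III, His (ATG) turned to -3.44 with file totals and -2.31 with median of ratios, and the lowest Leu (CAG) copies to -2.89 and -2.91, and to -1.69 and -1.70. The stretch with 2 Asn (GTT) genes, at 0.08, turned to -0.0717 as deposited, -3.09 with median of ratios, -0.0479 in gene bodies, -0.0496 on single-copy bases, -0.24 without RPC1 replicate 1, -0.000726 without RPC4 replicate 1 and -0.37 without input replicate 1; without a library it ran from -0.37 to 0.53. Leu (CAG) on chromosome 3 turned to 0.29 without input replicate 2, and ran from -1.42 to 0.29.

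No clear pairing of libraries by replicate number was seen: over 15 pairs of groups, deviations of same-numbered libraries correlated between -0.09 and 0.14, with 1 over 0.1. Few reads in the sparse libraries lower such correlations, so this check cannot show that the libraries were unpaired. With the replicate number as a block the counts were 24 and 27 for Pol III, 11 and 14 for RPB2, 25 and 22 for H3K4-titled and 0 for H3K36-titled and for RPC1 against RPC4.

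With 3365 and 3563 read equivalents in input, a member's input level rests on few reads, and a value near 1 read per base cannot separate weak occupancy from none.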
